A study of Mus musculus with 19 samples.

Results

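The cells described here were sorted as positive for 6C3, the antigen encoded by Enpep, out of limb tissue of wild-type mice taken on postnatal day 3, and they are set against every other neonatal population of the series. They account for 6 of the 19 arrays: 3 of Thy-6C3+CD105+ cells and 3 of Thy-6C3+CD105- cells. The other side has 12 arrays, with 3 for each of 4 populations: Thy+6C3-CD105+ and Thy+6C3-CD105- cells, called the Thy+6C3- populations below, with Thy-6C3-CD105+ and then Thy-6C3-CD105- cells, called the Thy-6C3- populations. The remaining array, of adult cells labelled Thy+6C3+CD105+, entered no test. All neonatal cells came from fore and hind limbs of a pooled litter of GFP-labelled mice, lacked CD45, Ter119 and Tie2, and carried integrin alpha V. Whether arrays of a population came from separate litters is not stated. Arrays were assigned by the population field of the labels, and each population weighed the same within its side. A pair of values for 6C3+, Thy+6C3- or Thy-6C3- cells gives the CD105+ and then the CD105- population of that kind.

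6C3 is the antibody name for glutamyl aminopeptidase, a membrane enzyme that trims angiotensin peptides and is found on stromal cells of lymphoid and marrow tissue as well as on kidney and vessel cells. In the limb skeleton it has been used, with Thy and CD105, to separate progenitors of cartilage, bone and stroma. In bone marrow, stromal cells feed blood-forming cells through secreted factors such as Cxcl12 and Kitl, while the joint surface is kept smooth by cells that make lubricin. Both 6C3+ populations are Thy-, and no neonatal Thy+6C3+ population is analysed here, so 6C3 and Thy are partly tied. The study's design compares populations that differ in these antigens, and the question taken up here is which genes set the 6C3+ cells apart from all 4 of the others.

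Enpep followed the sort. Its log2 level was 10.69 at the lowest, 10.90 at the median and 11.24 at the highest of the 6C3+ arrays, against 6.20, 7.59 and 8.83 over the 12 6C3- arrays. Every 6C3+ array lay above every 6C3- array, and the mean difference was 3.22 ± 0.29 (SE of the fit). Thy1 stood at 5.31 to 5.96 in the 6C3+ arrays, against 4.96 to 10.46 in the 6C3- arrays, whose upper end is formed by the Thy+ populations. Eng, which encodes CD105, averaged 8.49 ± 0.30 in the CD105+ and 7.24 ± 0.59 in the CD105- population of 6C3+ cells (SD, n = 3 each). These 3 genes encode the antigens that separate the populations and serve only as a check of the labels. Of the antigens gated alike in all populations, the Tie2 gene Tek was called lower in 6C3+ cells (-0.63). Its mean level of 5.31 was below that of the median gene, and the call was lost in 1 of 30 alternative settings. The CD45 gene Ptprc and the integrin alpha V gene Itgav were not called.

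Several arrays need care. The titles of Thy-6C3+CD105- replicates 2 and 3 name Thy+ cells, against their population field. Thy1 on both lay within the range given above for the 6C3+ arrays, well below its upper end in 6C3- arrays. Thy-6C3+CD105- replicate 2 had the highest deposited median (6.02, lowest 5.60 among the neonatal arrays). Thy-6C3+CD105- replicate 3 correlated best with an array of Thy+6C3-CD105- cells (r = 0.982 across genes). Thy+6C3-CD105- replicate 3 correlated with no array above 0.941. Poly-A control signal separated 11 arrays with high from 7 with low values, and 4 of the 6C3+ arrays were in the high set. Levels are log2 units after quantile normalization over the neonatal arrays, and no counts or depth exist for arrays.

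The promoters of Enpep and Dio2, among the genes higher in 6C3+ cells, and of Epyc and Matn1, among the lower ones, are shown because results on these genes recur below. Each runs from 250 bases before to 50 bases after the start of the RefSeq gene in the build GRCm38.p6, at chr3:129332700-129332999 on the minus strand, chr12:90738989-90739288 on the minus strand, chr10:97643818-97644117 on the plus strand and chr4:130944135-130944434 on the plus strand. Capitals mark matches, on either strand, of 4 short motifs. They are TATAAA, which is the TATA box, the promoter element CCAAT, the site of the factor AP-1 written TGANTCA, and a core shared by SOX factor sites written ACAANG. Matches of different motifs could overlap.
Enpep: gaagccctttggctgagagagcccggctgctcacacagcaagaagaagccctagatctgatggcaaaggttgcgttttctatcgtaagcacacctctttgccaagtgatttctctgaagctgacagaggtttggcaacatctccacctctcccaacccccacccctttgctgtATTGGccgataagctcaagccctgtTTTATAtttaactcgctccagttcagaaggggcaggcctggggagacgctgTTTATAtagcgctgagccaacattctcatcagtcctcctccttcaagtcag
Dio2: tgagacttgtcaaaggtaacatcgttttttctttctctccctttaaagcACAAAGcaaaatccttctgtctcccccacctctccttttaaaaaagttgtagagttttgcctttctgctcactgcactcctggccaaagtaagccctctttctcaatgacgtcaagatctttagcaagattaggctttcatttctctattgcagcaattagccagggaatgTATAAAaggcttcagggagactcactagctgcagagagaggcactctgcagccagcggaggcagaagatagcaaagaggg
Epyc: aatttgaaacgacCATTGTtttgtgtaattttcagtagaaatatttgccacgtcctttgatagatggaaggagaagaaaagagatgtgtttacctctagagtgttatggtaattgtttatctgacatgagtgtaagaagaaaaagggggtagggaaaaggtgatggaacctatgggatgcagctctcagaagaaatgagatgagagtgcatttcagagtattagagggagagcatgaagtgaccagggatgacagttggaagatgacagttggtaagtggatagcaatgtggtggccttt
Matn1: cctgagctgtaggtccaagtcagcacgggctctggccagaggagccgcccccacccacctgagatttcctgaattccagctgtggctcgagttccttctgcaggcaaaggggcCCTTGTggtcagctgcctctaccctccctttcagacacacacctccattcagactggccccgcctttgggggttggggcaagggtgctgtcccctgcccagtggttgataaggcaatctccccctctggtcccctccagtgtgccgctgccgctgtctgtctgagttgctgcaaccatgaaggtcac
The Enpep promoter had 3 matches, those of the TATA and CCAAT elements, Dio2 had 2, of the TATA box and the SOX core, and Epyc and Matn1 had 1 each, of the SOX core. The TATA box was present in 14.2% and the CCAAT element in 37.9% of all 27025 promoters of this length. The AP-1 pattern was present in 7.93% and the SOX core in 41.6% of them. Of the 15 promoters found for genes higher in 6C3+ cells than in each other population, 2 held the TATA box and 3 the CCAAT element. The AP-1 pattern was held by 0 of them and the SOX core by 9. Of the 5 found for the lower genes 1, 0, 1 and 3 held these motifs, in the same order. These matches describe the letters only.

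A gene was called at a limma adjusted p (Benjamini-Hochberg over 18193 genes) under 0.05. Between the 6C3+ and 6C3- sides 456 genes were called (2.51% of genes), 218 higher (1.20%) and 238 lower (1.31%) in 6C3+ cells, and 143 of them differed by at least 2-fold. An average over unlike populations can be carried by some of them, so 6C3+ cells were also set against each 6C3- population. From Thy+6C3-CD105+ cells they differed in 638 genes (3.51%), 218 higher (1.20%) and 420 lower (2.31%). The Thy+6C3-CD105- contrast called 1063 (5.84%), 557 higher (3.06%) and 506 lower (2.78%). The Thy-6C3-CD105+ contrast called 470 (2.58%), 218 higher (1.20%) and 252 lower (1.39%), and the Thy-6C3-CD105- contrast 697 (3.83%), 347 higher (1.91%) and 350 lower (1.92%). These comparisons share the 6C3+ arrays. Of the 218 genes higher on average, 19 (0.104% of all genes) also passed as higher against all 4 populations, 30 against 3, 114 against 2, 49 against 1 and 6 against none. Of the 238 lower genes, 9 (0.0495%) passed against all 4, 25 against 3, 155 against 2, 46 against 1 and 3 against none. The pairs of populations behind the middle group were mostly those sharing a Thy state: 54 genes were higher than in both Thy+6C3- populations only, 47 higher than in both Thy-6C3- populations only, 65 lower than in both Thy+6C3- and 74 lower than in both Thy-6C3- populations only. In 46 genes (0.253%) all 6C3+ arrays lay above all 6C3- arrays, and in 13 (0.0715%) all lay below.

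The 19 genes higher than in every 6C3- population included signalling ligands and receptors, transporters, matrix and cytoskeletal genes. Enpep itself was among them. Dio2, the deiodinase that activates thyroid hormone inside cells, stood at 9.77, 10.11 and 10.35 (lowest, median, highest) in 6C3+ arrays, against 8.02, 8.23 and 8.88 in 6C3- arrays. The groups were apart in every array, and the difference was 1.71 ± 0.12 (adjusted p = 2.49e-07 by limma). Its dimmer probe sets differed by 0.18 and 0.74. Col22a1, a collagen of tissue junctions, stood at 9.21, 9.35 and 9.77 in 6C3+ arrays, against 5.47, 6.85 and 8.74 in 6C3- arrays. It differed by 2.38 ± 0.19 on average (adjusted p = 7.73e-07), by 3.27 and 3.77 from the Thy+6C3- populations, and by 1.19 and 1.31 from the Thy-6C3- populations. The step to the Thy- populations was thus smaller than that to the Thy+ ones, with every 6C3+ array still above all others. The probe set used for Col22a1 is one that can match several transcripts, and its other probe sets differed by 1.43 and 0.80. Dio2 met this rule in 31 of 31 alternative settings and Col22a1 in 25 of 31.

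Among ligands, Btc, which encodes the EGF-family ligand betacellulin, had 7.25, 7.70 and 8.03 in 6C3+ arrays, against 4.91, 5.93 and 6.91 in 6C3- arrays (difference 1.84 ± 0.16, adjusted p = 2.03e-06 by limma), and its dimmer probe set differed by 0.51. Ntn4, a netrin of basement membranes, had 8.22, 8.73 and 8.97 in 6C3+ arrays, against 5.71, 7.39 and 8.17 in 6C3- arrays (1.45 ± 0.18, adjusted p = 0.000134). Both ligands were above all 6C3- arrays in every 6C3+ array. For Ntn4 the contrast with Thy-6C3-CD105+ cells was close to the threshold (1.02, adjusted p = 0.0457), it met the rule in 12 of 31 alternative settings, and its dimmer probe set differed by 0.11.

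Receptors and channels formed another group. Casr, the calcium-sensing receptor, had 7.70, 8.61 and 8.81 in 6C3+ arrays, against 6.65, 7.06 and 7.78 in 6C3- arrays (1.38 ± 0.17, adjusted p = 0.000134 by limma). Its groups overlapped through Thy-6C3+CD105+ replicate 3 at 7.70, and its dimmer probe set differed by 0.36. Galr2, a receptor for the neuropeptide galanin, had 7.50, 7.65 and 8.12 in 6C3+ arrays, against 5.86, 6.59 and 7.28 in 6C3- arrays (1.12 ± 0.13, adjusted p = 5.46e-05). Kcnk2, a background potassium channel, had 8.38, 8.60 and 9.11 in 6C3+ arrays, against 6.60, 7.26 and 7.90 in 6C3- arrays (1.45 ± 0.14, adjusted p = 4.25e-06). Galr2 and Kcnk2 did not overlap between the sides. Galr2 met the rule in 14 of 31 alternative settings, Casr in 19 of 30 and Kcnk2 in 29 of 31. Ackr2, an atypical receptor that scavenges chemokines, was 1.39 ± 0.18 higher (adjusted p = 0.000131), with overlap at 7.32 in the lowest 6C3+ array and 7.58 in the highest 6C3- array. Gria1, a glutamate receptor subunit chosen here after its values were seen, lay below the median gene at a mean of 5.59 in 6C3+ and 4.09 in 6C3- populations, and met the rule in 11 of 30 alternative settings.

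Transport and cell-structure genes completed the list. Slc38a1, a transporter of neutral amino acids, was tight, at 10.18, 10.38 and 10.41 in 6C3+ arrays, against 8.55, 9.23 and 9.55 in 6C3- arrays (1.12 ± 0.12, adjusted p = 2.80e-05 by limma). Ank, which moves pyrophosphate out of cells and limits mineral deposition, had 11.60, 11.73 and 12.14 in 6C3+ arrays, against 10.48, 10.92 and 11.17 in 6C3- arrays (0.89 ± 0.11, adjusted p = 0.000134). Both were high-level genes with sides that did not overlap. The scaffold gene Pdlim5 (0.98 ± 0.11), the musculoskeletal nuclear protein gene Mustn1 (1.37 ± 0.16) and the homeobox gene Hoxd9 (0.99 ± 0.13) did not overlap either. Pdlim5 lost its call when probe sets that can match several transcripts were left out (0.68, adjusted p = 0.249), since another probe set then stood for it. Cd1d1, which presents lipid antigens, was 0.95 ± 0.13 higher, Retreg1, a receptor for turnover of the endoplasmic reticulum, 1.003 ± 0.14, and Rap1gap2, a regulator of the small GTPase Rap, 0.87 ± 0.13. Myo10, a myosin of filopodia, passed most narrowly, with 0.72 (adjusted p = 0.0498 by limma) against Thy-6C3-CD105- cells, and met the rule in 10 of 31 alternative settings. Its other probe sets, all dimmer, differed by 0.30 to 0.41.

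**Figure D1:**
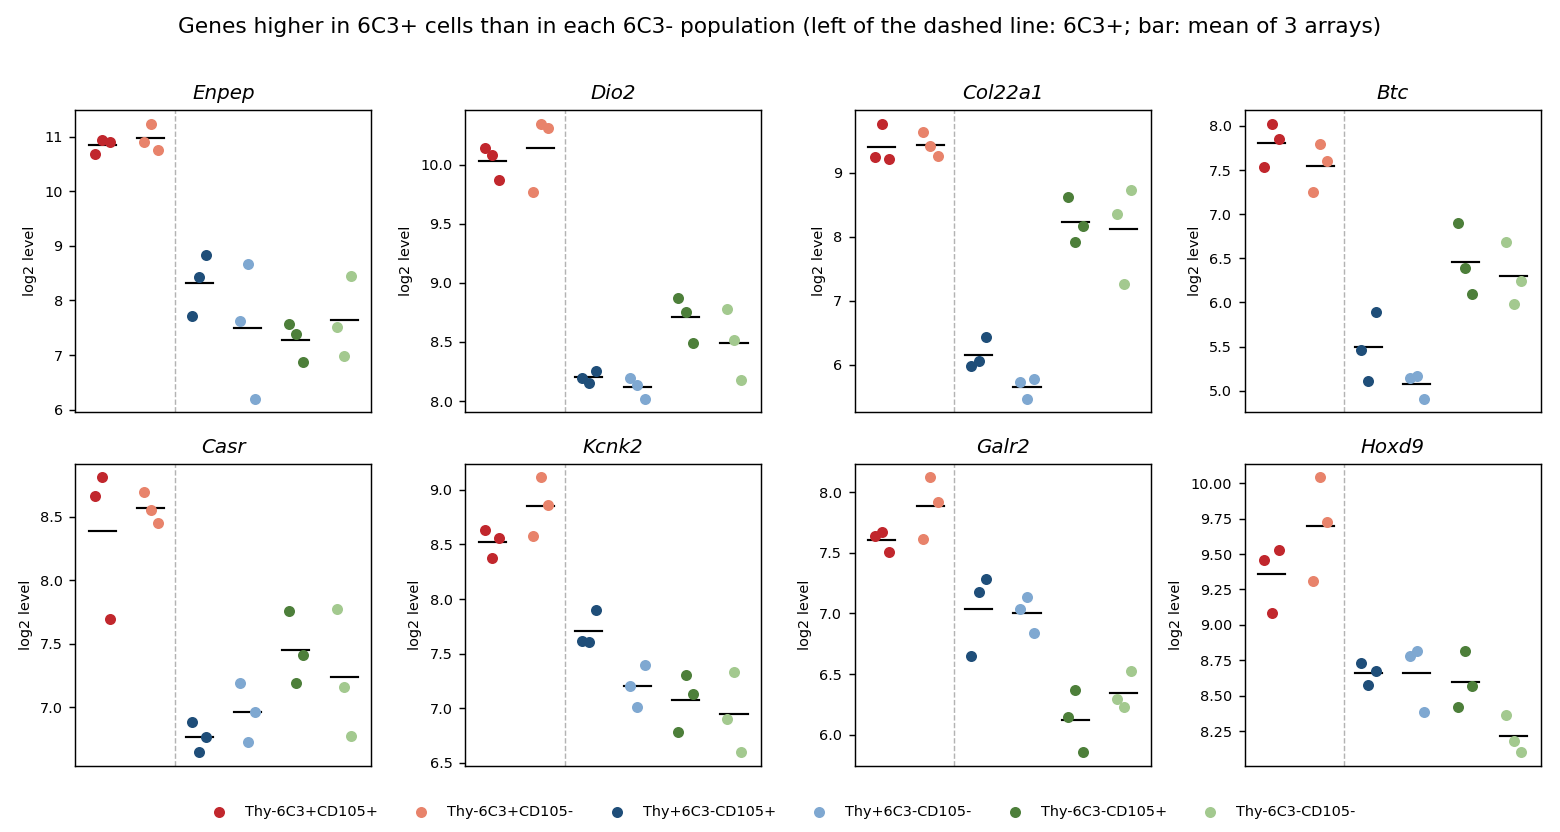
Log2 level on each array (points) for 8 genes higher in 6C3+ cells, with the mean of each population's 3 arrays (bars); 6C3+ populations are left of the dashed line. Dio2 sits at 9.77 to 10.35 in 6C3+ arrays and at 8.02 to 8.88 in 6C3- arrays, while the single low Casr point of Thy-6C3+CD105+ cells is at 7.70; vertical axes do not start at 0.

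The 9 genes lower than in every 6C3- population included cartilage matrix and Wnt antagonist genes. Matn1, a matrilin of cartilage, had 4.39, 4.63 and 6.50 in 6C3+ arrays, against 5.84, 9.85 and 11.74 in 6C3- arrays (difference -4.32 ± 0.21, adjusted p = 8.42e-10 by limma). The ends overlapped, and the difference from single populations reached -6.60 from Thy-6C3-CD105- cells but was -1.11 from Thy+6C3-CD105- cells (adjusted p = 0.0346). Epyc, a small proteoglycan of cartilage, had 4.91, 6.01 and 6.19 in 6C3+ arrays, against 7.16, 9.61 and 11.95 in 6C3- arrays (-3.74 ± 0.16, adjusted p = 2.72e-10). All 6C3+ arrays were below all others. Epyc met the rule in 30 of 30 alternative settings and Matn1 in 23 of 31.

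The secreted Wnt antagonist gene Sfrp1 had 6.75, 7.10 and 7.39 in 6C3+ arrays, against 7.99, 8.86 and 9.63 in 6C3- arrays (-1.70 ± 0.13, adjusted p = 7.73e-07 by limma). Apcdd1, a membrane inhibitor of Wnt signalling, had 8.30, 8.60 and 8.84 in 6C3+ arrays, against 9.19, 9.74 and 10.9975 in 6C3- arrays (-1.32 ± 0.11, adjusted p = 1.17e-06). Neither gene overlapped between the sides. The other probe sets of Sfrp1, all dimmer, differed by -0.35 to -1.27. C1qtnf3, a secreted protein of the C1q and TNF family made by cartilage, had 8.83, 9.52 and 10.23 in 6C3+ arrays, against 10.60, 11.49 and 11.63 in 6C3- arrays (-1.71 ± 0.16, adjusted p = 3.54e-06). It was lower in every 6C3+ array and met the rule in 31 of 31 alternative settings.

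Metabolic and other genes made up the rest. Cdo1, the cysteine dioxygenase that starts cysteine breakdown, had 6.06, 6.98 and 7.15 in 6C3+ arrays, against 7.78, 8.58 and 9.98 in 6C3- arrays (-1.88 ± 0.16, adjusted p = 1.18e-06 by limma). Enc1, an actin-associated kelch protein gene, had 8.12, 8.49 and 8.90 in 6C3+ arrays, against 9.18, 9.99 and 10.62 in 6C3- arrays (-1.52 ± 0.20, adjusted p = 0.000233). Both stood apart without overlap, and the dimmer probe sets of Enc1 differed by -0.012 and -0.92. Efemp1, which encodes the matrix protein fibulin-3, had 4.46, 5.26 and 6.08 in 6C3+ arrays, against 5.24, 7.93 and 9.14 in 6C3- arrays (-2.81 ± 0.32, adjusted p = 4.42e-05). Its sides overlapped only through Thy+6C3-CD105- replicate 3 at 5.24, while replicates 1 and 2 of that population were at 7.70 and 7.48. The population averaged 6.81 ± 1.36 (SD, n = 3), and its contrast was -1.61 (adjusted p = 0.0441 by limma). Efemp1 met the rule in 14 of 31 alternative settings. Crybg1, chosen after its values were seen, lay below the median gene on both sides, at a mean of 3.90 in 6C3+ and 4.71 in 6C3- populations. It met the rule in 12 of 30 alternative settings.

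**Figure D2:**
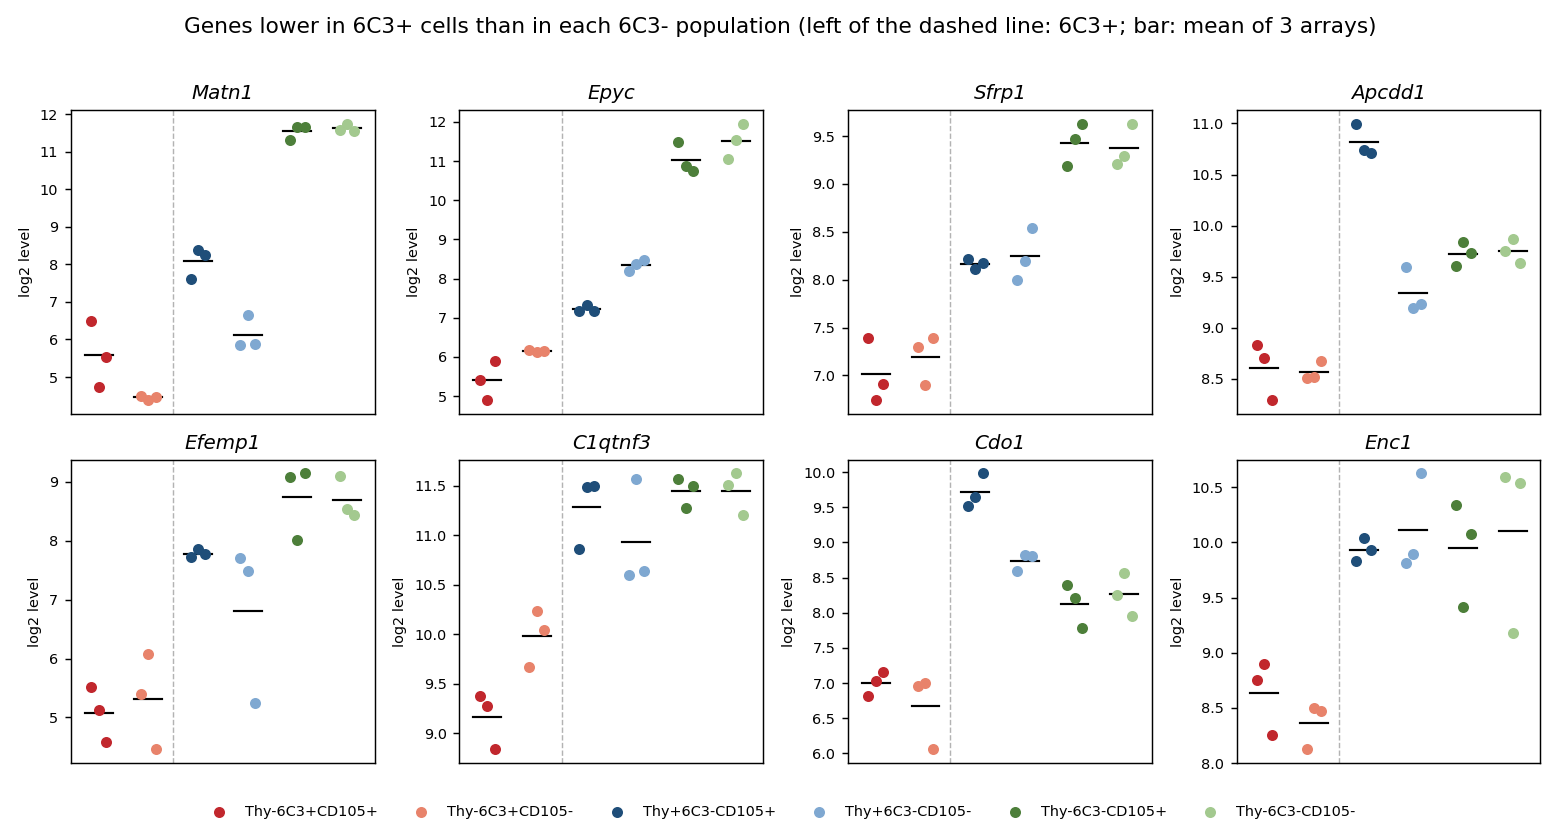
Log2 level on each array (points) for 8 genes lower in 6C3+ cells, with the mean of each population's 3 arrays (bars); 6C3+ populations are left of the dashed line. Epyc lies at 4.91 to 6.19 in 6C3+ arrays and at 7.16 to 11.95 in 6C3- arrays. Efemp1 overlaps through a single Thy+6C3-CD105- array, replicate 3. Vertical axes do not start at 0.

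With all 18 arrays 28 genes met the rule in either direction. With Thy-6C3-CD105+ replicate 3 left out 17 did, all of them among the 28, and without the arrays titled Thy+6C3+CD105- 16 did, of which 13 were among them. Within the high poly-A set 6 genes met it, all of them among the 28, whereas the low set holds a lone array of most populations and gives no count.

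Where called, most cartilage genes in 6C3+ cells were above the Thy+6C3- populations and below the Thy-6C3- populations. Of 22 chondrocyte genes, 12 were higher and 2 lower than in Thy+6C3-CD105+ cells, against 1.20% and 2.31% of all genes. From Thy+6C3-CD105- cells 13 differed upward and 2 downward, against 3.06% and 2.78% of all genes. Against the Thy-6C3- populations none were higher, and 12 (CD105+) and 13 (CD105-) were lower, where 1.39% and 1.92% of all genes were. The median differences were 1.25 and 1.25 from the Thy+ populations, and -1.30 and -1.27 from the Thy- populations, where all genes had medians of 0.039, -0.077, 0.017 and 0.063. In the average over the 4 populations these differences offset each other, and 5 genes were higher, 6 lower and 11 not called, against 1.20% higher and 1.31% lower over all genes, with a median of -0.19 against 0.0049 over all genes. Calls on this list moved between 1 and 7 higher and between 4 and 8 lower over 31 alternative settings.

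The cartilage collagens differed in where 6C3+ cells stood. Col2a1, Col9a2, Comp, Chad and Sox9 were chosen after their values were seen. Col2a1, the main collagen of cartilage, averaged 13.54 and 13.40 in the 6C3+ populations, against 11.34 and 11.22 in Thy+6C3- cells and 14.07 and 14.11 in Thy-6C3- cells. It was 0.79 ± 0.12 higher on average (adjusted p = 0.000796 by limma). Col9a2, a chain of collagen IX, averaged 8.98 and 8.44 in the same 6C3+ populations, against 7.39 and 6.86 in Thy+6C3- and 11.26 and 11.43 in Thy-6C3- cells. It was 1.33 and 1.85 above the Thy+ populations and -2.55 and -2.72 from the Thy- populations, with each of these called. The average difference of Col9a2 was -0.52 ± 0.13 (adjusted p = 0.0367). Col9a3 averaged 12.20 and 11.51 in 6C3+, 10.58 and 10.42 in Thy+6C3- and 13.64 and 13.85 in Thy-6C3- cells, and was also called against each of them. Col9a1 averaged 12.79 and 12.55 in 6C3+, 11.60 and 10.39 in Thy+6C3- and 13.35 and 13.32 in Thy-6C3- cells, and was called against the Thy+ populations only. Col11a2 averaged 9.40 and 9.15 in 6C3+, 8.03 and 9.24 in Thy+6C3- and 11.10 and 11.57 in Thy-6C3- cells, and was not called against Thy+6C3-CD105- cells. Col11a1, at 12.69 and 12.24 in 6C3+, 11.997 and 12.32 in Thy+6C3- and 13.16 and 13.31 in Thy-6C3- cells, was called against none.

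Other cartilage genes were called against populations of a single Thy state. Comp, a cartilage and tendon matrix glycoprotein, averaged 13.40 and 13.26 in the 6C3+ populations, against 12.35 and 12.44 in Thy+6C3- cells and 13.41 and 13.45 in Thy-6C3- cells. Chad, the cell-binding matrix protein chondroadherin, averaged 12.63 and 12.49, against 11.19 and 11.37 in Thy+6C3- cells and 12.89 and 12.79 in Thy-6C3- cells. Neither was called against a Thy-6C3- population, and both were called above each Thy+ population. Matn3 stood in contrast, at 8.63 and 8.49 in the 6C3+ populations, against 8.42 and 8.21 in Thy+6C3- cells and 12.35 and 12.40 in Thy-6C3- cells (average -1.78 ± 0.14, adjusted p = 7.73e-07). Snorc, a cartilage proteoglycan (-1.44 ± 0.26), and Ucma, a secreted protein of young chondrocytes (-1.21 ± 0.15), were likewise called lower than both Thy-6C3- populations and not called against either Thy+ population. Among the SOX factors that drive cartilage genes, Sox9 averaged 9.13 and 9.12 in 6C3+ cells, against 7.87 and 7.91 in Thy+6C3- and 10.62 and 10.73 in Thy-6C3- cells, and was called only against the Thy-6C3- populations (adjusted p = 0.0417 and 0.0207). Acan, Sox9, Sox6, Sox5, Col9a1, Col9a3, Col11a1, Col11a2, Hapln1, Cnmd and Fgfr3, which make up the 11 genes not called in the average and are named after their values were seen, had average differences of -0.72 to 0.65.

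Genes of hypertrophic cartilage, the mature form that precedes bone, were lower in 6C3+ cells than in Thy-6C3- cells. Of 8 members 5 were lower and 1 higher on average, against 1.31% and 1.20% of all genes, with a median of -0.88. The higher member was Mmp13 (1.92), which is described below with the metalloproteases. With genes below the median gene mean left out, 3 members were measured and 1 was lower. Including that setting, the lower members numbered 1 to 6 over 31 alternatives. They numbered 3 when any of 8 single arrays was left out: Thy-6C3+CD105+ replicate 1, 2 or 3, Thy-6C3+CD105- replicate 3, Thy-6C3-CD105+ replicate 1 or 2, or Thy-6C3-CD105- replicate 1 or 2. Against the Thy-6C3- populations 5 and 6 were lower, and none were higher, where 1.39% and 1.92% of all genes were lower. Col10a1, the collagen of hypertrophic cartilage, had 4.99, 5.54 and 5.85 in 6C3+ arrays, against 5.25, 6.9999 and 9.10 in 6C3- arrays (-1.55 ± 0.17, adjusted p = 2.69e-05 by limma). The growth plate's hedgehog ligand gene Ihh averaged 5.15 and 4.95 in the 6C3+ populations, against 4.94 and 5.42 in Thy+6C3- and 7.07 and 7.997 in Thy-6C3- cells (-1.31 ± 0.14, adjusted p = 2.42e-05). Neither gene was called against a Thy+ population. Runx3 (-0.98 ± 0.24, adjusted p = 0.0393), a transcription factor of chondrocyte maturation, and Alpl (-0.79 ± 0.19, adjusted p = 0.0291), a phosphatase of mineralizing cells, lost their calls in 15 of 30 and 10 of 31 alternative settings. The channel gene Panx3 was -2.38 ± 0.19 on the probe set used and 0.13 (adjusted p = 0.911) on the probe set that remained when shared ones were left out.

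Joint and synovial genes went the other way. Of 13 members 6 were higher and none were lower on average, against 1.20% and 1.31% of all genes, with a median of 0.44, and between 4 and 7 were higher under 31 alternative settings. Against single populations 4 and 5 were higher and 2 and 1 lower than in Thy+6C3- cells. Of all genes, 1.20% and 3.06% were higher there and 2.31% and 2.78% lower. Against Thy-6C3- cells 3 and 4 were higher and none lower, where 1.20% and 1.91% of all genes were higher. Prg4, which encodes the joint lubricant lubricin, had 12.24, 13.80 and 14.11 in 6C3+ arrays, against 10.22, 12.18 and 13.76 in 6C3- arrays (1.43 ± 0.20, adjusted p = 0.000272 by limma). It overlapped with the Thy-6C3- arrays, from whose populations it differed by -0.03 and 0.29 (adjusted p = 0.999 and 0.716). Gdf5, a BMP-family ligand that marks forming joints, had 9.06, 9.21 and 9.78 in 6C3+ arrays, against 6.53, 7.98 and 8.86 in 6C3- arrays (1.36 ± 0.16, adjusted p = 5.46e-05). Every 6C3+ array was above every 6C3- array, and Gdf5 passed against 3 of the 4 populations, missing the threshold against Thy-6C3-CD105- cells (0.47, adjusted p = 0.373).

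Transcription factor genes in the joint list included Erg, which is found in developing articular cartilage as well as in vessels, and Barx1, a homeobox gene of joint-forming mesenchyme. Erg averaged 9.59 and 9.36 in the 6C3+ populations, against 8.19 and 7.99 in Thy+6C3- and 9.30 and 8.86 in Thy-6C3- cells (0.89 ± 0.13, adjusted p = 0.000598 by limma). Barx1 had 8.60, 8.98 and 9.38 in 6C3+ arrays, against 7.33, 7.98 and 8.51 in 6C3- arrays (1.01 ± 0.12, adjusted p = 0.000101). Barx1 did not overlap between the sides and missed the threshold only against Thy-6C3-CD105+ cells (0.54, adjusted p = 0.159). The protease gene Htra1 (0.44 ± 0.07) and Dkk3, a secreted protein of the Dickkopf family (0.70 ± 0.12), had the reverse pattern to Prg4 and Erg, being called against both Thy-6C3- populations and against neither Thy+6C3- population. Within the high poly-A set Prg4 (1.30, adjusted p = 0.0737) and Erg (adjusted p = 0.0687) missed the threshold.

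Related matrix genes outside the lists were picked after their values were seen. Cilp, a cartilage intermediate layer protein gene, averaged 10.58 and 10.99 in the 6C3+ populations, against 8.72 and 8.95 in Thy+6C3- and 10.15 and 10.17 in Thy-6C3- cells (1.29 ± 0.14, adjusted p = 2.53e-05 by limma). Its relative Cilp2 had 9.92, 10.15 and 10.68 in 6C3+ arrays, against 8.19, 8.97 and 9.89 in 6C3- arrays (1.30 ± 0.19, adjusted p = 0.000536). Cilp2 did not overlap between the sides, while Cilp did. Vit, a matrix gene first found in the eye, and the protease gene Htra4 were called above both Thy+6C3- populations and above neither Thy-6C3- population (average 1.96 ± 0.36 and 1.74 ± 0.31).

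**Figure D3:**
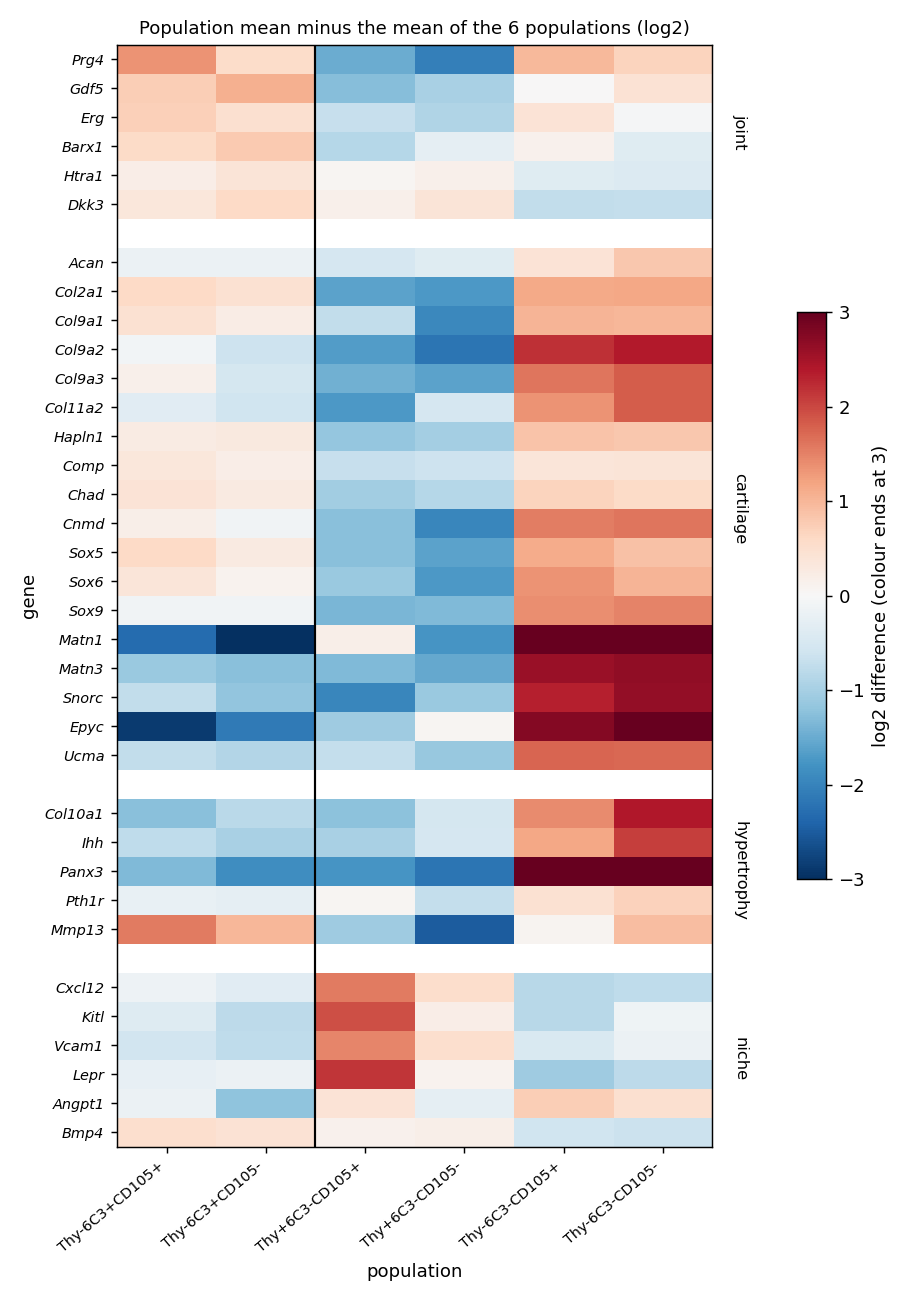
Mean log2 level of each population minus the mean over the 6 populations, in colour (red higher, blue lower, ends at 3), for joint, cartilage, hypertrophic and marrow niche genes; the 6C3+ populations are the columns left of the black line. Col9a2 at 8.98 and 8.44 in 6C3+ cells falls between 7.39 and 6.86 in Thy+6C3- and 11.26 and 11.43 in Thy-6C3- cells, whereas Gdf5 is highest in both 6C3+ columns.

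The name stroma was checked against 18 genes of blood-cell support. On average 1 was higher and 2 lower in 6C3+ cells, against 1.20% and 1.31% of all genes, with a median of -0.13. None were higher and 4 and 1 were lower than in the Thy+6C3- populations, with medians of -0.41 and -0.21. Of all genes, 2.31% and 2.78% were lower there. Against each Thy-6C3- population 1 was higher and 1 lower, with medians of 0.20 and 0.061. Of all genes, 1.20% and 1.91% were higher there and 1.39% and 1.92% lower. Cxcl12, the chemokine that holds blood stem cells in marrow, averaged 9.27 and 9.09 in the 6C3+ populations, against 10.97 and 9.94 in Thy+6C3- and 8.59 and 8.67 in Thy-6C3- cells. Kitl, the ligand of the Kit receptor, averaged 6.96 and 6.58 in the 6C3+ populations, against 9.28 and 7.56 in Thy+6C3- and 6.51 and 7.22 in Thy-6C3- cells. Lepr, the leptin receptor of marrow stroma, averaged 6.06 and 6.14 in the 6C3+ populations, against 8.45 and 6.42 in Thy+6C3- and 5.24 and 5.52 in Thy-6C3- cells. All 3 had their highest mean in Thy+6C3-CD105+ cells, and none was called in the average (adjusted p = 0.480, 0.449 and 0.966 by limma). These 3 genes were chosen after their values were seen.

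The members called were Vcam1, Angpt1 and Bmp4. Vcam1, an adhesion molecule for blood cells, had 8.21, 8.38 and 8.52 in 6C3+ arrays, against 8.32, 9.20 and 10.76 in 6C3- arrays (-1.001 ± 0.12, adjusted p = 7.06e-05 by limma), with overlap between the sides and calls against the Thy+ populations only. Angpt1, a ligand of the Tie2 receptor, averaged 6.53 and 5.49 in the 6C3+ populations, against 7.13 and 6.45 in Thy+6C3- and 7.46 and 7.20 in Thy-6C3- cells (-1.05 ± 0.19, adjusted p = 0.00377). Bmp4 was 0.71 ± 0.18 higher (adjusted p = 0.0462), a call lost in 16 of 31 alternative settings. These counts were not used to name the cells, which are called 6C3+ cells here.

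Of 17 genes of the renin-angiotensin system and other surface peptidases, the setting in which Enpep acts, 1 was higher and 2 lower, which is 17.6% called against 2.51% of all genes. Agt, the precursor of the angiotensins that aminopeptidase A trims, averaged 9.20 and 8.70 in 6C3+ cells, against 8.04 and 7.84 in Thy+6C3- and 8.46 and 8.09 in Thy-6C3- cells (0.84 ± 0.18, adjusted p = 0.0106 by limma). Agt was not called higher than in Thy+6C3-CD105+ cells or in either Thy-6C3- population, where 0 members of this list were. It missed the threshold in the average when Thy-6C3+CD105+ replicate 2 was omitted (0.76, adjusted p = 0.0542) and within the high poly-A set (0.80, adjusted p = 0.357). The peptidases Dpep1 (-1.89 ± 0.21, adjusted p = 3.20e-05) and Dpp4 (-0.77 ± 0.15, adjusted p = 0.00631) were lower only against the Thy+6C3- populations. Dpep1 averaged 5.25 and 5.28 in 6C3+ cells, against 10.09 and 7.64 in Thy+6C3- and 5.66 and 5.22 in Thy-6C3- cells.

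Wnt pathway genes were called in both directions, 6 higher and 7 lower of 41, which is 31.7% called against 2.51% of all genes, with a median of -0.14. Over 31 alternative settings 3 to 7 were higher and 3 to 10 lower. Among R-spondins, which amplify Wnt signals, Rspo3 was lower and Rspo2 higher. Rspo3 had 4.54, 5.47 and 6.19 in 6C3+ arrays, against 5.55, 7.41 and 8.04 in 6C3- arrays (-1.74 ± 0.18, adjusted p = 1.51e-05 by limma), and was called lower than every population other than Thy+6C3-CD105- cells (-0.59, adjusted p = 0.161). Rspo2 had 8.49, 8.74 and 10.16 in 6C3+ arrays, against 6.55, 7.90 and 9.76 in 6C3- arrays (0.99 ± 0.22, adjusted p = 0.0187), called against the Thy-6C3- populations only. Both overlapped between the sides, and their dimmer probe sets differed by -0.06 (Rspo3) and -0.02 (Rspo2). Rspo2 missed the threshold in 5 of 31 alternative settings, with an adjusted p of up to 0.463 by limma. Among them were those with Thy-6C3+CD105+ replicate 1 or 2 or Thy-6C3+CD105- replicate 2 left out (adjusted p = 0.0598, 0.0636 and 0.0723). Lgr6, a receptor for R-spondins, averaged 9.50 and 9.50 in the 6C3+ populations, against 6.91 and 6.38 in Thy+6C3- and 9.40 and 8.31 in Thy-6C3- cells (1.75 ± 0.25, adjusted p = 0.000337). The secreted antagonist genes Sfrp1, Sfrp5 (-1.50 ± 0.20) and Dkk2 (-1.16 ± 0.27) were lower. The Dkk2 call was lost in 5 of 31 alternative settings, with an adjusted p of up to 0.542 by limma. Among them were those with Thy-6C3+CD105+ replicate 2 or Thy-6C3+CD105- replicate 2 or 3 left out (adjusted p = 0.107, 0.0557 and 0.0813). Wif1 (0.51 ± 0.10) was higher, with means of 12.59 and 12.57 in 6C3+ cells close to the 12.60 and 12.34 of Thy-6C3- cells.

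BMP genes were also called in both directions. Of 29 BMP pathway genes 3 were higher, namely Gdf5, Bmp4 and Gdf10, and 3 were lower, namely Fst, Chrdl1 and Id4, which is 20.7% called against 2.51% of all genes. Gdf10, a ligand of this family, averaged 11.65 and 11.20 in 6C3+ cells, against 9.99 and 9.02 in Thy+6C3- and 11.84 and 11.74 in Thy-6C3- cells (0.78 ± 0.09, adjusted p = 5.06e-05 by limma). The antagonist gene Fst (-1.28 ± 0.32, adjusted p = 0.0421) lost its call in 16 of 31 alternative settings and Chrdl1 (-1.01 ± 0.26, adjusted p = 0.0438) in 17 of 30. Of 13 Hedgehog genes Hhip, a decoy receptor for Hedgehog ligands, was higher and Ihh lower, which is 15.4% called. Hhip averaged 10.93 and 10.33 in 6C3+ cells, against 8.89 and 8.31 in Thy+6C3- and 10.30 and 9.65 in Thy-6C3- cells (1.35 ± 0.17, adjusted p = 0.000101). It was called against all of these except Thy-6C3-CD105+ (0.34, adjusted p = 0.814).

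Of 18 metalloprotease and inhibitor genes 3 were higher on average, all proteases, and none were lower, against 1.20% and 1.31% of all genes, with a median of 0.064. Single populations gave calls both ways: 2 and 3 were higher and 3 and 1 lower than in Thy+6C3- cells. Of all genes, 1.20% and 3.06% were higher there and 2.31% and 2.78% lower. Against Thy-6C3- cells 4 and 3 were higher and 1 and 0 lower. Over all genes these shares were 1.20% and 1.91% higher and 1.39% and 1.92% lower. Mmp13, a collagenase of cartilage and bone, had 6.998, 7.75 and 8.29 in 6C3+ arrays, against 3.42, 5.85 and 7.76 in 6C3- arrays (1.92 ± 0.25, adjusted p = 0.000177 by limma). Mmp3, the protease stromelysin, had 7.20, 7.48 and 8.45 in 6C3+ arrays, against 5.51, 6.03 and 8.08 in 6C3- arrays (1.40 ± 0.28, adjusted p = 0.00833). Both overlapped with Thy-6C3- arrays and were called only against the Thy+6C3- populations. Mmp9, a gelatinase at a level near the median gene, was 0.83 ± 0.15 higher (adjusted p = 0.00386) and not called against Thy+6C3-CD105+ cells (0.24, adjusted p = 0.821). In the high poly-A set Mmp3 and Mmp9 missed the threshold (adjusted p = 0.0583 and 0.292). Mmp3 missed it in 2 of 30 alternative settings in all, with an adjusted p of up to 0.144 by limma.

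Of 30 limb and mesenchymal transcription factors 2 were lower on average, Twist2 and Msx1, which is 6.67% called against 2.51% of all genes. Against the Thy+6C3- populations 3 and 4 were higher and 9 and 5 lower. Of all genes, 1.20% and 3.06% were higher there and 2.31% and 2.78% lower. Against the Thy-6C3- populations 1 and 0 were higher and none were lower, where 1.20% and 1.91% of all genes were higher. Twist2 averaged 7.32 and 6.94 in 6C3+ cells, against 10.86 and 8.79 in Thy+6C3- and 7.17 and 7.30 in Thy-6C3- cells (-1.40 ± 0.18, adjusted p = 0.000177 by limma). Msx1 had 7.68, 7.81 and 8.17 in 6C3+ arrays, against 8.23, 8.57 and 9.60 in 6C3- arrays (-0.82 ± 0.17, adjusted p = 0.00810). No array overlapped for Msx1, although its call was lost when shared probe sets were left out (-0.45, adjusted p = 0.276). Of 28 Hox genes Hoxd9 and Hoxa10 were higher and Hoxd13 lower (10.7% called), but the sign of Hoxa10 turned on its other probe set (0.87 ± 0.19, against -0.09 with adjusted p = 0.888). Hoxd13, at -0.81 ± 0.19 (adjusted p = 0.0214), lost its call in 8 of 31 alternative settings.

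Of 23 guidance genes 3 were higher on average and none lower, against 1.20% and 1.31% of all genes. Against the Thy+6C3- populations 0 and 2 were higher and 2 and 2 lower, with medians of -0.26 and -0.20. Of all genes, 1.20% and 3.06% were higher there and 2.31% and 2.78% lower. Against the Thy-6C3- populations 2 and 3 were higher and none lower, with medians of 0.12 and 0.21. Of all genes, 1.20% and 1.91% were higher there. Ntn1, a secreted netrin that steers axons and vessels, had 8.36, 9.05 and 9.32 in 6C3+ arrays, against 6.65, 7.67 and 8.86 in 6C3- arrays (1.30 ± 0.24, adjusted p = 0.00456 by limma), called against the Thy-6C3- populations only. The dimmer probe set of Ntn1 differed by -0.04. The semaphorin genes Sema3e (1.13 ± 0.26, adjusted p = 0.0196 by limma) and Sema3b (0.56 ± 0.14, adjusted p = 0.0481) were the other higher genes. Sema3b was lower than in Thy+6C3-CD105- cells (-0.90, adjusted p = 0.0152) and lost its average call in 21 of 30 alternative settings. Sema3e missed the threshold in 6 of 31 alternative settings, with an adjusted p of up to 0.348 by limma. Among them were those with Thy-6C3+CD105+ replicate 1 or 2 or Thy-6C3+CD105- replicate 2 left out (adjusted p = 0.0780, 0.0717 and 0.0694).

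**Figure D4:**
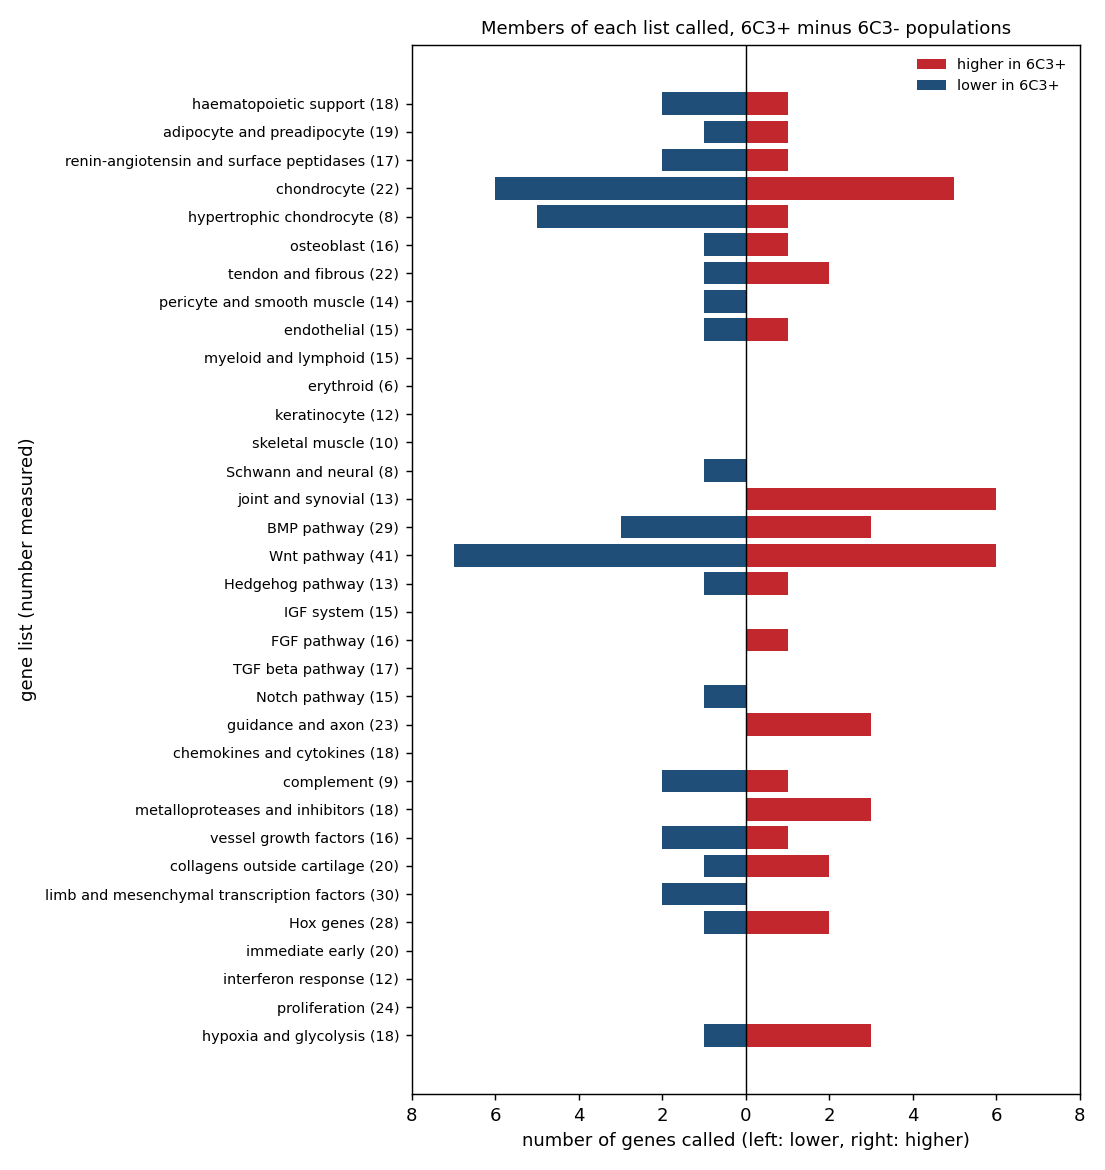
Number of members of each gene list called higher (bars to the right) or lower (bars to the left) in 6C3+ cells in the average over the 4 6C3- populations, with the number of measured members in brackets. The joint and synovial list has 6 higher and none lower, the chondrocyte list 5 and 6, and the hypertrophic chondrocyte list 1 and 5.

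Some lists gave no call in the average: the myeloid and lymphoid, erythroid, keratinocyte, skeletal muscle, IGF, TGF beta, chemokine, immediate early, interferon and proliferation lists. A p that misses the threshold does not show that these genes are alike. The immediate early list of 20 genes had calls in opposite directions against single populations. Of these genes 2 and 5 were higher and none lower than in the Thy+6C3- populations, with medians of 0.57 and 0.97. Of all genes, 1.20% and 3.06% were higher there. None were higher and 4 and 4 lower than in the Thy-6C3- populations, with medians of -0.63 and -0.68. Of all genes, 1.39% and 1.92% were lower there. Defining markers of other cell types overlapped between the sides, with ranges of unlike width. The mean level of 5 myeloid and lymphoid markers was 5.61 to 6.44 in 6C3+ arrays and 5.45 to 6.74 in 6C3- arrays, and that of 5 endothelial markers was 5.02 to 5.37 and 4.90 to 5.59. The 4 keratinocyte markers averaged 6.19 to 7.31 in 6C3+ arrays and 6.19 to 8.94 in 6C3- arrays, and the 4 pericyte and smooth muscle markers 9.50 to 9.92 and 9.22 to 11.41. The 6C3- arrays thus reached higher levels of both. The mean of 4 chondrocyte markers was 10.67 to 11.34 in 6C3+ arrays and 9.75 to 13.19 in 6C3- arrays, with 1 marker called higher and 1 lower. The mean of the 2 osteoblast markers measured was 5.71 to 7.93 in 6C3+ arrays and 5.12 to 9.39 in 6C3- arrays, with 1 called lower. The endothelial marker Tek was also called lower. In bulk RNA, fewer cells of a type and less RNA per cell cannot be told apart. The part of other cell types in these results was not tested.

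Ifitm1, Ednrb and Avpr1a, which were lower in 6C3+ cells, were picked after their values were seen. Ifitm1, an interferon-inducible membrane protein gene, averaged 6.15 and 6.70 in 6C3+ cells, against 10.64 and 8.9975 in Thy+6C3- and 6.62 and 6.82 in Thy-6C3- cells (-1.84 ± 0.23, adjusted p = 0.000128 by limma). Ednrb, an endothelin receptor, averaged 5.02 and 5.04, against 8.01 and 8.32 in Thy+6C3- and 4.80 and 6.83 in Thy-6C3- cells (-1.96 ± 0.16, adjusted p = 9.66e-07 by limma). The dimmer probe sets of Ednrb differed by -0.25 and -0.09. Avpr1a, a vasopressin receptor, averaged 4.85 and 4.64, against 7.72 and 5.54 in Thy+6C3- and 7.43 and 7.51 in Thy-6C3- cells (-2.31 ± 0.22, adjusted p = 4.79e-06). Each had 6C3+ cells at low levels that at least 1 other population shared or approached, since the contrasts with Thy-6C3-CD105+ cells (Ifitm1 and Ednrb) and Thy+6C3-CD105- cells (Avpr1a) were not called.

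The 6C3+ populations were also taken apart. Against the mean of the 6C3- populations, Thy-6C3+CD105+ cells differed in 206 genes (1.13%), 93 higher (0.511%) and 113 lower (0.621%), and Thy-6C3+CD105- cells in 230 (1.26%), 99 higher (0.544%) and 131 lower (0.720%). These contrasts share the 6C3- arrays. Both were called in the same direction in 59 higher genes (0.324%) and 74 lower genes (0.407%). Without Thy-6C3+CD105+ replicate 2 the sum of these was 50, against 133 with all arrays, and without Thy-6C3+CD105+ replicates 1 and 3, each left out alone, and Thy-6C3+CD105- replicate 3 it was 68, 63 and 87. Dio2, Btc, Col22a1 and Gdf5 passed in both, as did Epyc, Matn1, Sfrp1 and Cdo1 in the lower direction.

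Between Thy-6C3+CD105+ and Thy-6C3+CD105- cells 0 genes were called (0%) at an adjusted p under 0.05 by limma, with 497 at an unadjusted p under 0.05. Eng, the gene of the sorted antigen, differed by 1.26 ± 0.30 and did not pass (adjusted p = 1). Prg4 averaged 14.00 ± 0.19 in the CD105+ and 13.20 ± 0.85 in the CD105- population, and Matn1 5.59 ± 0.88 and 4.46 ± 0.06 (SD, n = 3 each). The difference between the 6C3 effects in CD105+ and in CD105- cells was tested directly, and 0 genes were called (0%), with 340 at an unadjusted p under 0.05 and a smallest adjusted p of 0.355. With the mean of all probe sets 1 gene was called in each of these comparisons, and with array weights 4 in the last. Thy-6C3+CD105+ replicate 3 correlated better with Thy-6C3+CD105- replicate 1 (0.991) than with its own population (at most 0.985). The fit holds no term for this pair. Nothing here shows that the 6C3+ populations are alike, since 3 arrays a group limit the precision.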

How the data were processed

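RNA of sorted cells was amplified in successive rounds, labelled and hybridized to Affymetrix mouse genome arrays, per the labels' protocols. The authors deposited log2 expression values (2.55 to 14.6) for 45101 probe sets; the steps between scan and log2 value are not given in the sources used here. Amplification from small samples can favour the ends of transcripts and add noise. The 64 controls were left out; 34945 probe sets had 1 gene symbol in the platform annotation, 932 several and 9160 none. Array medians differed by 0.42, above a limit of 0.1, so the 18 neonatal arrays were quantile normalized. The probe set with the highest mean stood for each of 18193 genes, with no filter on low values. Results of other probe sets are given for some genes only.

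The model (limma 3.58.1, R 4.3.3) held a mean for each population (12 residual and 5.38 prior degrees of freedom), eBayes with a trend and two-sided tests. Calls were made per contrast at 0.05 after Benjamini-Hochberg adjustment. A gene was counted as set apart from every population where the average and all 4 population contrasts (5 in all) passed in 1 direction. The labels do not say whether arrays of a population came from separate litters, so p-values measure the spread between arrays, which may be technical. Arrays carry no counts, and 3 arrays per population limit the precision.

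Members and gene lists were chosen with earlier results of these data known; of 642 list entries 604 were named by the annotation. Named genes were the sorted antigens, the genes passing all 5 contrasts with the largest gaps between population means and a higher side above the median gene mean of 6.76, and up to 6 called members per list. Genes outside this rule are said to be chosen after their values were seen. Alternatives changed scaling, probe sets, dim genes, variance model, weights, blocks and arrays. Omitting 2 arrays that stand apart together, and recounting the lists, were added after seeing the data. The fit was tested on simulated data. Promoters came from RefSeq (GRCm38.p6). Figures used Python 3.11.15 with matplotlib 3.10.9, pandas 2.3.3 and numpy 2.4.6.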

Additional observations from a re-analysis of the deposited data

Results flagged for a closer look

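Among 135 named genes, 10 had a 6C3+ array far from the other 5 by Dixon's test at its 95% critical value, a rate at which chance flags about 1 in 20 groups. In Thy-6C3+CD105- replicate 3, Ptprc, the gene of the gated antigen CD45, was 5.23 (nearest array 4.43), Vat1l 8.61 (7.74) and Enho 7.21 (6.75). In the same array Cdo1 was 6.06 (nearest 6.81), Alpl 6.13 (6.67) and Htra4 5.65 (7.04). In Thy-6C3+CD105- replicate 2, Prg4 was 12.24 (nearest 13.55), Masp1 4.05 (6.16) and Twist2 6.35 (7.18). In Thy-6C3+CD105+ replicate 3, Casr was 7.70 (nearest 8.45). Both arrays of Thy-6C3+CD105- cells named here carry titles that say Thy+. Ptprc lay below the median gene mean of 6.76 on every array. Vat1l, Enho and Htra4 were named after their values were seen. The part of the arrays' labels in these values was not tested.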

How the results depend on the processing

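The count of 456 genes became 687 with array weights, 151 within the high poly-A set and 209 without the arrays titled Thy+6C3+CD105-. The 28 genes set apart from every population became 6 in the high poly-A set and 16 without the arrays titled Thy+. The 133 genes called in both 6C3+ populations became 22 and 20. For the CD105 comparison within 6C3+ cells the mean of all probe sets gave 1 gene, where 0 were called. For the 6C3 effect by CD105 it gave 1 and array weights gave 4. Leaving out each array in turn gave 310 to 588, 17 to 31, 50 to 170, 0 to 0 and 0 to 2, in the order of the average, every population, both 6C3+ populations, CD105 within 6C3+ cells and the 6C3 effect by CD105, the 588, 31 and 170 without Thy+6C3-CD105- replicate 3, and the 310 and 50 without Thy-6C3+CD105+ replicate 2. The fit then assumes that pairs of arrays vary like the rest. Without both arrays that stand apart, an alternative chosen after seeing the data, the counts were 552, 30 and 159. Taken over all populations, 19 of 45 same-numbered pairs had a correlation of deviations over 0.1 (median 0.0284), against 35 of 90 other pairs (median 0.0113). Some same-numbered CD105+ and CD105- arrays were nonetheless closer to each other than to their own population. Thy-6C3- replicates 1 correlated at 0.993 across CD105 and replicates 2 at 0.995, against at most 0.986 within population. Thy+6C3- replicates 1 correlated at 0.988, against at most 0.984. Among 6C3+ cells a pair with unlike numbers was close in the same way. Thy-6C3+CD105+ replicate 3 and Thy-6C3+CD105- replicate 1 correlated at 0.991, against at most 0.985 and 0.973 within their populations. Both are in the low poly-A set. The main fit holds no term for such pairs. With the replicate number as a block the counts were 464, 30, 132, 0 and 0, but that block does not join the 6C3+ pair of unlike numbers. With shared probe sets left out another probe set stood for Panx3 (0.13), Hoxa10 (-0.094) and Col26a1 (-0.067), and their sign changed. Over all alternatives 3774 of the named-gene results kept direction and side of the threshold, 364 missed the threshold in the same direction and 3 changed sign. With the poly-A set as a block 547 and 41 genes were called. The low poly-A set, with lone arrays of most populations, gives no test, and the cause of these shifts was not tested.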

Other observations

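The adult array, labelled Thy+6C3+CD105+, stood outside every comparison. On the scale of the neonatal arrays Enpep was 8.44 there, below all neonatal 6C3+ arrays, and Thy1 was 8.77. Of the genes set apart in neonatal 6C3+ cells, Dio2 was 6.12, Col22a1 4.59, Btc 5.04 and Slc38a1 5.34, all below the neonatal 6C3- medians, whereas Ntn4 was 9.96, Galr2 7.79 and Ank 11.49. C1qtnf3, lower in neonatal 6C3+ cells, was 12.07, and Cebpd, a transcription factor of adipocyte development, was 12.30. This is 1 array with no replicate.

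Genes of tendon and fibrous tissue gave 2 higher (Col14a1 and Col12a1) and 1 lower (Pi16) of 22 in the average, which is 13.6% called against 2.51% of all genes. They were higher in 4 and 6 members and lower in none against Thy-6C3-CD105+ and Thy-6C3-CD105- cells. Of all genes, 1.20% and 1.91% were higher there. Against Thy+6C3-CD105+ and Thy+6C3-CD105- cells 7 and 7 were lower and 2 and 1 higher. Over all genes these shares were 2.31% and 2.78% lower and 1.20% and 3.06% higher. Pericyte and smooth muscle genes were lower in 10 of 14 against Thy+6C3-CD105+ cells, where 2.31% of all genes were lower, with none higher. Against Thy+6C3-CD105- cells 2 were lower and 2 higher, where 2.78% and 3.06% of all genes were.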
